A study of Mus musculus with 2 samples.

Results

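Elastic fibre genes were followed across the cell types of the newborn mouse heart. The 10 genes were Eln, Fbn1, Fbn2, Fbln1, Fbln2, Fbln5, Mfap2, Mfap4, Mfap5 and Lox, chosen by name from the 27999 features of the count tables, and all 10 were found there. The cells came from 1 biological sample, P0 whole heart of background strain C57BL6+ICR, which was run as 2 technical replicates on the 10x Chromium system. The hearts were minced and digested with trypsin for 30 min at 37 °C, with cells collected as 6 fractions. No gene was altered and no agent was tested, so the comparisons are between cell types of the same hearts. The stated use of the data was a reference map of heart cells for choosing transcription factors for lineage conversion.

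Elastic fibres let arteries, valves and the heart wall stretch and recoil. Cells secrete tropoelastin, the product of Eln, which is laid onto a scaffold of fibrillin microfibrils and then crosslinked by lysyl oxidase and its relatives. Fibulins bridge elastin, the microfibrils and the crosslinking enzymes, and the microfibril-associated proteins sit along the fibrillins. Most elastin of the great arteries is laid down around birth by smooth muscle cells of the vessel wall.

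Eln lies at chr5:134702593-134747323 on the minus strand of mm10. The fibrillin genes lie at chr2:125300594-125507993 for Fbn1 and chr18:58008623-58210487 for Fbn2, both on the minus strand. The fibulin genes lie at chr15:85205949-85286535 for Fbln1 and chr6:91212455-91272540 for Fbln2, both on the plus strand, and at chr12:101746565-101819055 on the minus strand for Fbln5. Mfap2 lies at chr4:141010418-141015984, Mfap4 at chr11:61485431-61488900 and Mfap5 at chr6:122505845-122529290, all on the plus strand. Lox lies at chr18:52516067-52529867 on the minus strand. All 10 are protein-coding genes, and values are counts over the whole gene, mostly from its 3′ end.

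The replicates held 5888 and 6047 barcodes with 34668956 and 33871582 counts. Barcodes with at least 500 genes and under 0.5% of counts from globin genes were kept, which left 4596 and 4005, or 8601 in all, with 1851 to 76750 counts each. Each kept barcode was placed in a class by its share of counts from marker genes, and no elastic fibre gene served as a marker. Class names mean only that a barcode resembles that cell type. Smooth muscle and fibroblast barcodes with at least 1% of their counts from Eln were held apart as Eln-high, so Eln itself defines those classes. The 12 compared classes held 8178 barcodes, and epicardial barcodes, with 19 in replicate 1 and 39 in replicate 2, are shown but were under the minimum of 20 per replicate. Another 248 barcodes carried markers of more than 1 lineage and were set aside, which was the only handling of doublets. Of the kept barcodes, 31 had a barcode sequence that also occurred in the other replicate, 1 of them in an Eln-high class.

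The markers that placed the barcodes were summed in each class. A high sum of a class's own markers follows from the gate and is no check of its name. The 6 smooth muscle markers summed to 12061 and 13129 counts per 1000000 counts (CPM) in Eln-high smooth muscle and to 15979 and 17841 CPM in other smooth muscle. The 9 cardiomyocyte markers summed to 20469 and 20136 CPM in cardiomyocytes, and to between 594 and 1246 CPM in every other class, the source of which was not tested. Arterial endothelial barcodes had Sox17 among their leading genes, but also Prox1, a marker of lymphatic endothelium. None of the 10 leading genes of Eln-high fibroblasts was a marker of their gate, although the 8 fibroblast markers summed to 19385 and 24816 CPM there.

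Summed over all 10 genes, counts were highest in the Eln-high classes, which Eln defines. The 10 genes took 5.44% of all counts in Eln-high smooth muscle (5.34% and 5.56% in replicates 1 and 2) and 3.61% in Eln-high fibroblasts (3.70% and 3.52%). They took 0.503% in interstitial fibroblasts, 0.295% in endocardial barcodes and 0.281% in other smooth muscle. In cardiomyocytes they took 0.0215%, and in macrophages 0.00727%. Eln itself was 86.0% of the sum in Eln-high smooth muscle and 72.1% in Eln-high fibroblasts. The other 9 genes summed to 7625 CPM in Eln-high smooth muscle, 10098 CPM in Eln-high fibroblasts, 4524 CPM in valve or tendon-like fibroblasts, 4073 CPM in interstitial fibroblasts and 1228 CPM in other smooth muscle, so without Eln the Eln-high fibroblasts came first. Among the 12 compared classes, 8 of the 10 genes had their highest level in an Eln-high class, although Fbln1 and Fbln2 were higher still in epicardial barcodes. Those were Eln, Fbln5 and Lox in Eln-high smooth muscle, and Fbn1, Fbln1, Fbln2, Mfap2 and Mfap4 in Eln-high fibroblasts. Fbn2 was highest in valve or tendon-like fibroblasts, and Mfap5 in interstitial fibroblasts. This count used no size rule, and Eln is among the 8 by definition. The ratio to the next compared class was only 1.02 for Mfap2, 1.12 for Lox and 1.19 for Fbln2. The share of all genes that were highest in an Eln-high class is not given here.

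**Figure D1:**
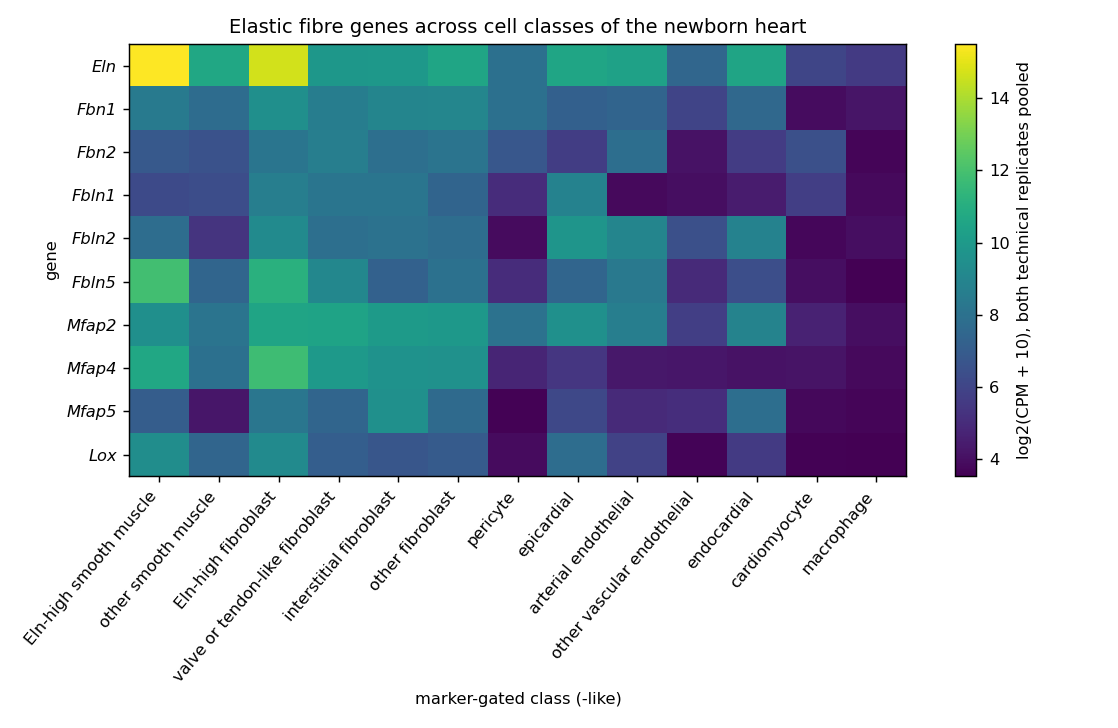
Levels of the 10 elastic fibre genes (rows) in 13 marker-gated classes (columns), as log2(CPM + 10) of counts summed over both technical replicates. Eln stands out in the 2 Eln-high classes, which it defines, while Mfap5 is brightest in interstitial fibroblasts and macrophages are dark in nearly every row.

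A gene led a class if both replicates held 20 counts or more of it there, and if its level was 2-fold or more above the next of the compared classes in each. By this rule only Mfap5 led a class, interstitial fibroblasts, where 0.0344% of 8729 genes led. Over all classes 8.3% of 12252 genes led one. With 1 biological sample there is no test of these differences, and the replicates show only how far 2 captures of the same suspension differed. For 9 of the genes the next class lay within 2-fold in at least 1 replicate. When the smooth muscle, fibroblast and vascular subtypes were merged into broad classes, a setting chosen after the data were seen, 7 of the 10 led a class. These were Eln, Fbln5 and Lox in smooth muscle, and Fbn2, Fbln1, Mfap2 and Mfap5 in fibroblasts. The share of all genes that led a broad class is not given here. The 8.3% above belongs to the finer classes and is no measure for it.

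Eln encodes tropoelastin, the elastic core of the fibre. Its level was 46730 CPM in Eln-high smooth muscle (45689.6 and 48107 in replicates 1 and 2), and 26035 CPM in Eln-high fibroblasts (27215 and 24716). These values follow from the definition of both classes, which also holds other smooth muscle and the other fibroblast classes under 1%. Next came other smooth muscle at 1586 CPM, epicardial barcodes at 1531 CPM, other fibroblasts at 1503 CPM, endocardial barcodes at 1473 CPM and arterial endothelium at 1334 CPM. The replicate ranges of neighbours in that order overlapped, so they were not set apart. Valve or tendon-like fibroblasts at 936 CPM (810 and 1115) and interstitial fibroblasts at 956 CPM (964 and 949) overlapped too. Pericytes at 233 CPM, other vascular endothelium at 167 CPM, cardiomyocytes at 54.0 CPM and macrophages at 36.3 CPM closed the order.

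Single barcodes carried much of Eln where it was low on average. In pericytes 124 of 251 Eln counts came from 1 barcode, and in arterial endothelium 478 of 964 did. In cardiomyocytes 328 of 1908 counts came from 1 barcode. After each barcode was thinned to 2000 counts, Eln was detected in 6.19% of cardiomyocytes (interval 5.56 to 6.87) and in 7.94% of macrophages (3.87 to 14.1), a cell type not known for elastin. Without thinning the shares were 16.4% and 18.5%, at median depths of 6109 and 4919 counts. The intervals overlapped, while the pooled level was 54.0 CPM in cardiomyocytes and 36.3 CPM in macrophages. The source of these counts was not tested.

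Eln ranged widely among smooth muscle barcodes, and the values given here are those that set the classes. Of 255 smooth muscle-like barcodes, 117 were Eln-high, or 45.9% (exact binomial 95% interval 39.6 to 52.2), with 49.6% in replicate 1 and 41.8% in replicate 2. The median Eln share of a barcode was 4.46% inside the class, with a highest value of 9.27%, and 0.0400% outside it, where 44 of 138 barcodes had no Eln count. Only 6 barcodes lay between 0.9% and 1.1%, and the nearest values on either side of the threshold were 1.00% and 0.976%. The values ran on across the threshold, with 38 barcodes between 0.1% and 0.5%, 10 between 0.5% and 1% and 19 between 1% and 2%. Fibroblast-like barcodes were Eln-high in 93 of 1184 cases, or 7.85% (6.39 to 9.54), with 7.59% and 8.15% in the replicates. Of the 229 kept barcodes with at least 1% Eln, 117 were thus smooth muscle-like and 93 fibroblast-like.

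Fibrillins form the microfibril scaffold. Fbn1, the main fibrillin after birth, was spread widely over mesenchymal classes. It stood at 719 CPM in Eln-high fibroblasts (689 and 753), 517 CPM in other fibroblasts (521 and 511) and 496 CPM in interstitial fibroblasts (480 and 513), of which the last pair overlapped. Valve or tendon-like fibroblasts had 383 CPM, Eln-high smooth muscle 334 CPM, pericytes 235 CPM and other smooth muscle 207 CPM. It was lowest in macrophages at 8.39 CPM and cardiomyocytes at 5.12 CPM.

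Fbn2, the fibrillin best known from development, had a different order. It was highest in valve or tendon-like fibroblasts at 386 CPM (397 and 372), followed by Eln-high fibroblasts at 280 CPM, other fibroblasts at 267 CPM, interstitial fibroblasts at 230 CPM and arterial endothelium at 223 CPM, whose ranges overlapped in turn. Eln-high smooth muscle had 106 CPM (136 and 67.0), pericytes 100.1 CPM, other smooth muscle 84.1 CPM and cardiomyocytes 76.6 CPM (78.0 and 74.9). Other vascular endothelium had 6.94 CPM. The cardiomyocyte level thus overlapped that of other smooth muscle.

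The share of Fbn2 in the summed Fbn2 and Fbn1 counts compares classes without setting 1 gene against the other. It was 93.7% in cardiomyocytes (2705 of 2886 counts, exact binomial interval 92.8 to 94.6, replicates 94.8% and 92.5%). It was 58.8% in arterial endothelium (interval 52.7 to 64.7) and 50.2% in valve or tendon-like fibroblasts (46.7 to 53.7). In these 3 classes Fbn2 made up more of the fibrillin counts than in interstitial fibroblasts and in smooth muscle. The arterial Fbn2 counts came from 12 of 64 barcodes, with 53 of 161 in 1 of them, which the interval does not cover. Cardiomyocytes had the lowest Fbn1 level, 5.12 CPM, so their high share goes with little Fbn1. The share was 31.7% in interstitial fibroblasts (30.2 to 33.2), 28.1% in Eln-high fibroblasts, 24.2% in Eln-high smooth muscle and 28.9% in other smooth muscle. The lowest shares were in endocardial barcodes at 18.2% and in other vascular endothelium at 11.5% (8.73 to 14.8). The interval of the cardiomyocyte share overlapped that of no other class.

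In cardiomyocytes Fbn2 was detected in 13.1% of barcodes after thinning (interval 12.2 to 14.0) and in 0 of 126 macrophages, which allows up to 2.89% by the exact binomial interval. Without thinning the shares were 31.5% and 1.54%. The Fbn2 counts were spread over 1717 of 5445 cardiomyocytes, with at most 14 in 1 barcode. Mitochondrial genes took a median of 36.6% of cardiomyocyte counts, and when the total was taken without mitochondrial and haemoglobin genes the cardiomyocyte level of Fbn2, as the mean of both replicates, was 119 CPM. Fbln1 showed a similar pattern, with 42.6 CPM in cardiomyocytes (41.7 and 43.5) and detection in 7.53% of them after thinning (6.84 to 8.27), against 0.794% of macrophages (0.0201 to 4.34). Without thinning those shares were 17.7% and 2.31%, and with the smaller total the level was 66.0 CPM.

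**Figure D2:**
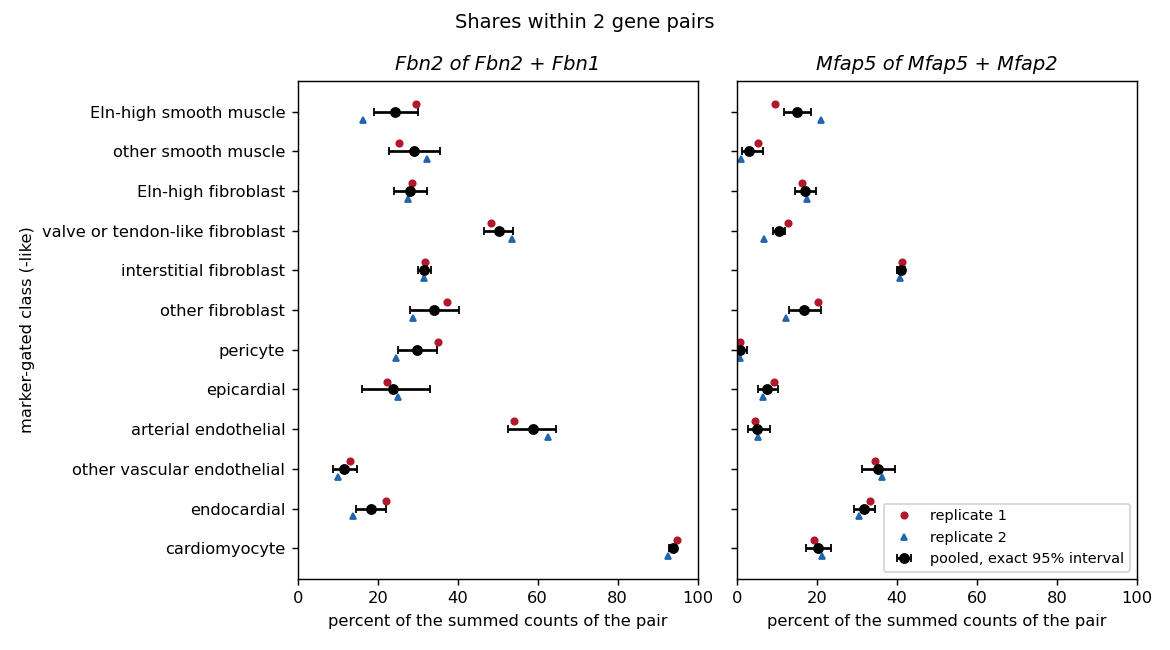
Share of Fbn2 in the summed Fbn2 and Fbn1 counts (left) and of Mfap5 in the summed Mfap5 and Mfap2 counts (right), in percent, for 12 marker-gated classes, with macrophages left out for their few counts. Black points are both technical replicates pooled with exact binomial 95% intervals, and red circles and blue triangles are replicates 1 and 2. Cardiomyocytes lie at 93.7% for Fbn2, and interstitial fibroblasts are highest for Mfap5 at 41.1%.

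Fibulins are the bridging glycoproteins. Fbln5, which binds tropoelastin and is needed for elastic fibre assembly in mice, was, among the 10 genes, the most like Eln in its pattern over the 12 compared classes, of which Eln defines 2. Its level was 3794 CPM in Eln-high smooth muscle (3810.4 and 3771) and 2247 CPM in Eln-high fibroblasts (2493 and 1972). Valve or tendon-like fibroblasts had 519 CPM (458 and 605), arterial endothelium 324 CPM, other smooth muscle 161 CPM and interstitial fibroblasts 141 CPM. Pericytes, with 22.2 CPM, and other vascular endothelium, with 20.3 CPM, overlapped.

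Fbln2, a fibulin of vessel walls and valves, was most abundant outside smooth muscle. Epicardial barcodes had 858 CPM (864 and 853), Eln-high fibroblasts 593 CPM (519 and 675), arterial endothelium 498 CPM (405 and 580.3) and endocardial barcodes 447 CPM (420 and 476). Interstitial fibroblasts at 249 CPM, valve or tendon-like fibroblasts at 225 CPM, other fibroblasts at 212 CPM and Eln-high smooth muscle at 211 CPM formed an overlapping run. Other smooth muscle had 30.0 CPM. With replicate 1 left out, epicardial barcodes entered the comparison and were the highest class for Fbln2.

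Fbln1, another matrix fibulin, was also high in epicardial barcodes, at 446 CPM (434 and 453), which overlapped Eln-high fibroblasts at 396 CPM (328 and 471). Valve or tendon-like and interstitial fibroblasts both had 276 CPM. Eln-high smooth muscle had 64.9 CPM and other smooth muscle 71.3 CPM, with overlapping ranges, so this fibulin did not go with Eln in smooth muscle. Arterial endothelium had 3 counts in all, or 4.15 CPM.

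The microfibril-associated genes encode small glycoproteins bound to fibrillin. Mfap2 had 1444 CPM in Eln-high fibroblasts (1431 and 1460), 1412 CPM in valve or tendon-like fibroblasts (1410.2 and 1414), 1063 CPM in interstitial fibroblasts and 700 CPM in Eln-high smooth muscle. The first pair was so close that the highest class changed to valve or tendon-like fibroblasts when Eln-high was set at 0.5%, or without the 5% of barcodes with most counts. Mfap4, which binds elastin and fibrillin, was highest in Eln-high fibroblasts at 3535 CPM (3169 and 3944), against 1634 CPM in Eln-high smooth muscle (1633 and 1634). Their ratio of 2.16 reached 2-fold in replicate 2 (2.41) and not in replicate 1 (1.94).

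Mfap4 was nearly absent from endothelium. Endocardial barcodes had 7.11 CPM, arterial endothelium 9.69 CPM and other vascular endothelium 9.04 CPM, close to the 7.56 CPM of cardiomyocytes. Mfap5, the closest relative of Mfap2, did reach endocardial barcodes. It stood at 742 CPM in interstitial fibroblasts (742 and 741), 293 CPM in Eln-high fibroblasts (280 and 308) and 218 CPM in endocardial barcodes (218 and 218), and at 1.85 CPM in pericytes. The share of Mfap5 in the summed Mfap5 and Mfap2 counts was 41.1% in interstitial fibroblasts (40.1 to 42.1), 35.3% in other vascular endothelium, 31.8% in endocardial barcodes and 10.4% in valve or tendon-like fibroblasts (8.95 to 12.0). In pericytes it was 0.719% (2 of 278 counts).

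Lox encodes lysyl oxidase, which starts the crosslinking of elastin and collagen. Its level was 660 CPM in Eln-high smooth muscle (696 and 612) and 591 CPM in Eln-high fibroblasts (576 and 607). The ratio of those classes was 1.12, with a counting interval of 0.953 to 1.31. Epicardial barcodes had 216 CPM, other smooth muscle 160 CPM, valve or tendon-like fibroblasts 128 CPM and interstitial fibroblasts 96.5 CPM. Endothelial, pericyte, cardiomyocyte and macrophage classes had 48.4 CPM or less.

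The first comparison within a cell type set Eln-high against other smooth muscle, a split that Eln defines and the other 9 genes did not enter. Of those 9 genes, 6 were at least 2-fold higher in Eln-high smooth muscle in both replicates (Fbln2, Fbln5, Mfap2, Mfap4, Mfap5 and Lox) and 0 were lower, while 4.31% of 2689 genes were higher and 6.43% lower. No p-value can be given for 1 sample. The median log2 ratio, computed on CPM + 10, was 1.98 for the 9 genes and -0.09 for all genes.

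Fbln5 had 3810.4 and 3771 CPM in Eln-high smooth muscle, against 248 and 79.9 CPM in other smooth muscle, a ratio of 23.5 (counting interval 19.5 to 28.7). The ratio was 15.3 in replicate 1 and 47.2 in replicate 2. Fbln5 was detected, after thinning, in 94.0% of Eln-high smooth muscle barcodes (88.0 to 97.5) and 11.0% of other smooth muscle (6.31 to 17.5). The replicates of the 2 classes did not overlap, and those of other smooth muscle differed more from each other.

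Mfap4 had 1633 and 1634 CPM in Eln-high smooth muscle, against 361 and 113 CPM in other smooth muscle, a ratio of 7.03 (5.94 to 8.35). Lox had 696 and 612 CPM against 195 and 127 CPM, a ratio of 4.13 (3.33 to 5.15). A protein that binds the fibre and the enzyme that crosslinks it thus stood apart between the classes, with no overlap of replicates. Mfap2 had 690 and 712 CPM against 269 and 278 CPM, a ratio of 2.55 (2.14 to 3.05), the most even of the set and the smallest that passed. Fbln2 had 272 and 130 CPM against 47.3 and 13.8 CPM, a ratio of 7.04 (4.40 to 11.8). Mfap5 rested on 68 and 6 counts, with 72.8 and 189 CPM against 14.8 and 2.76 CPM, and its ratio of 14.3 had an interval of 6.25 to 40.4. These 3 genes, like Mfap4 and Lox, were higher in both Eln-high replicates than in either replicate of the others.

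The other genes did not pass. Fbn1 had 323 and 348 CPM in Eln-high smooth muscle and 219 and 196 CPM in other smooth muscle, a ratio of 1.61 (1.29 to 2.02). Fbn2 (ratio 1.26, interval 0.866 to 1.85) and Fbln1 (ratio 0.910, interval 0.576 to 1.43) had intervals that include 1. The fibrillins and Fbln1 were thus the genes that stayed within 2-fold between the 2 smooth muscle classes.

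**Figure D3:**
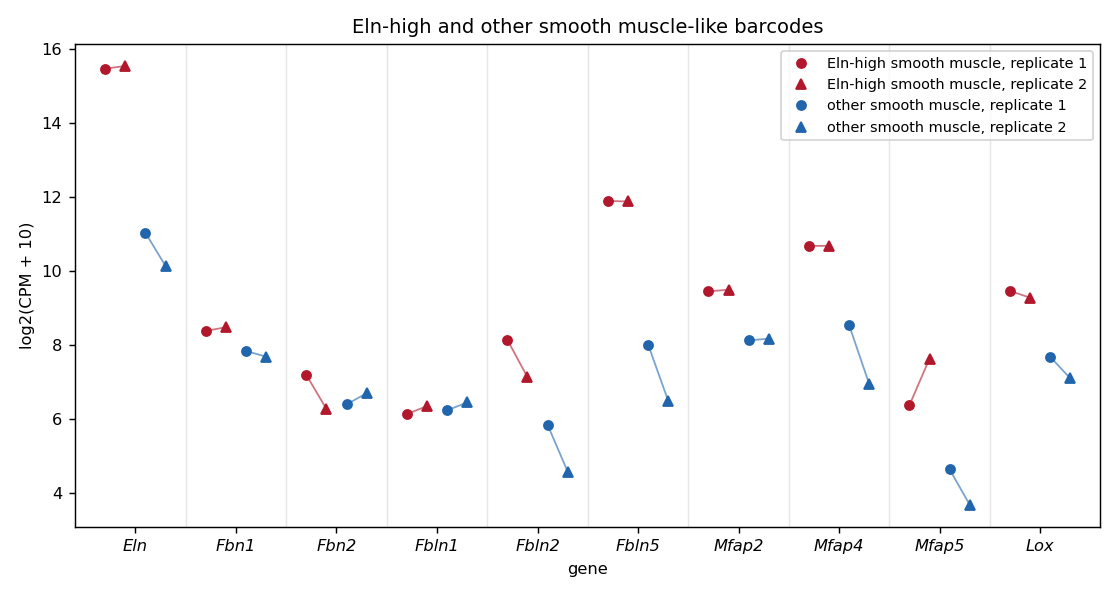
Levels of the 10 genes in Eln-high (red) and other (blue) smooth muscle-like barcodes as log2(CPM + 10), with circles for technical replicate 1 and triangles for replicate 2. Red and blue points stand well apart for Eln, which defines the split, and for Fbln5, Mfap4, Lox, Mfap2, Fbln2 and Mfap5, and lie close together for Fbn2 and Fbln1.

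Markers of other cell types moved with the same split. The 8 fibroblast markers, all with counts in both classes, summed to 6551 and 6344 CPM in Eln-high smooth muscle, against 2909 and 2026 CPM in other smooth muscle. The 8 pericyte markers summed to 1244 and 1391 CPM against 3692 and 4225 CPM, with Vtn at 0 in Eln-high smooth muscle. To see how far the result rested on barcodes with mixed markers, the classes were narrowed, after the data were seen, to barcodes past only 1 of the fibroblast, smooth muscle and pericyte gates.

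That left 37 Eln-high barcodes (19 and 18) and 49 others (23 and 26). Of the 9 genes, 5 were then higher by the same rule, and these were all that had enough counts. Fbn1, Fbln5, Mfap2 and Mfap4, with 26, 26, 35 and 6 counts in the others, were testable only through the Eln-high class. Had they not been higher there, they would not have been judged. That all testable genes were higher is therefore no measure of how far the result held, and only the levels can be read. Of the 910 genes with enough counts, 5.6% were higher. Fbln5 had 3332 and 3266 CPM against 103 and 109.6 CPM, and Mfap4 1179 and 991 CPM against 17.2 and 31.3 CPM. Fbn1, which had not passed before, did so with 335 and 283 CPM against 103 and 109.6 CPM. Fbln2, with 46 counts against 0, and Mfap5, with 16 against 0, no longer had enough counts to be judged. Neither did Fbn2, with 6 against 14, and Fbln1, with 0 against 4. Restricting the gates thus kept Fbln5, Mfap2, Mfap4 and Lox on the higher side. The fibroblast markers still summed to 3624 and 3375 CPM in these Eln-high barcodes, against 1047 and 931 CPM in the others, and their part in the result was not tested.

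Within the smooth muscle barcodes the genes followed Eln to different extents. Barcodes with under 0.1% Eln (n = 90) had 9.30 CPM of Fbln5, those with 0.1% to 0.5% (n = 38) 165 CPM, those with 2% to 5% (n = 46) 3884 CPM and those with 5% or more (n = 52) 4765 CPM. Lox went along the same bins with 90.6, 236, 498 and 902 CPM, and Mfap4 with 34.9, 325, 1693 and 1757 CPM. The 2 bins between, of 10 and 19 barcodes, are too thin to read. Fbln1 was lowest in the top bin at 17.02 CPM, against 95.3 CPM at 2% to 5% Eln, and Fbn2 had 46.8 CPM there against 117 CPM. Eln is part of each barcode's total, so in the top bins it takes counts from the other genes, by at most its own share.

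**Figure D4:**
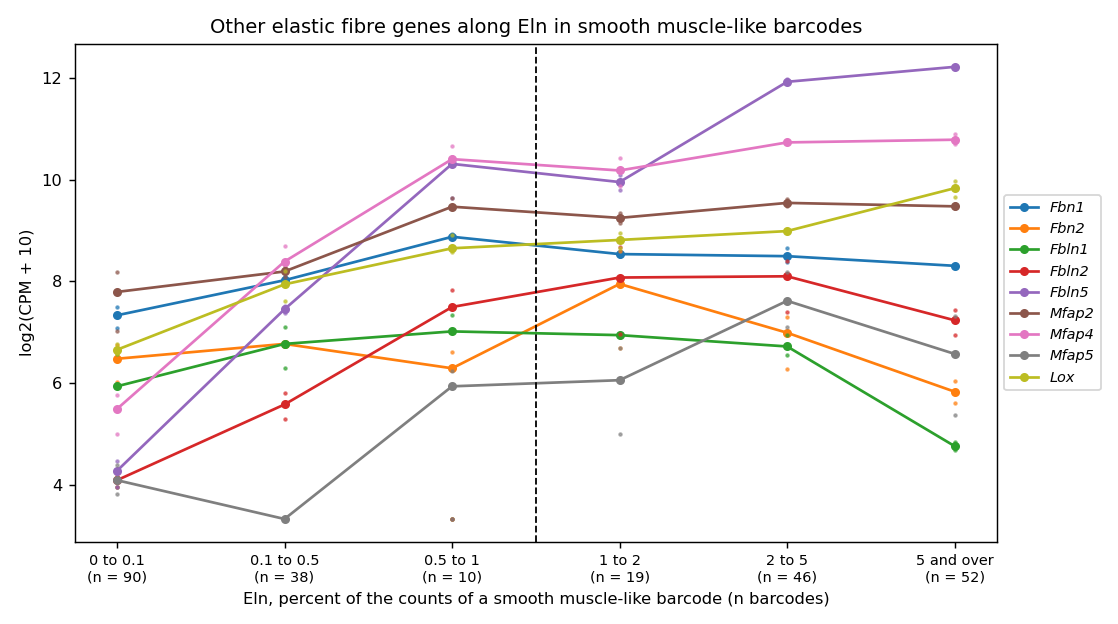
Levels of 9 elastic fibre genes as log2(CPM + 10) in smooth muscle-like barcodes grouped by the percent of their counts from Eln, with the number of barcodes under each group. Lines join values pooled over both technical replicates, small dots are the replicates, and the dashed line marks the 1% threshold. Fbln5 lies at 9.30 CPM in the lowest group and 4765 CPM in the highest. Mfap2 lies at 736 and 702 CPM in the last 2 groups, and Fbln1 is lowest in the last group.

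The smooth muscle markers themselves did not all go with Eln. Cnn1, which encodes calponin, had 293 CPM in the lowest bin and 719 CPM in the highest. Myh11, smooth muscle myosin, had 923 CPM in the lowest and 264 CPM in the highest. Acta2 went from 10599 CPM in the lowest bin to 7215 CPM in the highest, and Tagln from 4425 to 3118 CPM. Of these markers only Cnn1 was thus higher in the highest bin. The markers Myocd and Lmod1 were not followed over the bins. Rgs5, a pericyte marker, had 4325 CPM in the lowest bin, 943 CPM at 0.1% to 0.5% Eln, 1031 CPM at 2% to 5% and 813 CPM at 5% or more.

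RefSeq promoter windows for GRCm38.p6 were matched by symbol for 5 of the 10 genes, Fbn1, Fbln1, Fbln2, Fbln5 and Mfap2, with 8 start sites. Eln, Fbn2, Mfap4, Mfap5 and Lox have no entry. The 250 bases before the start are shown for Fbln5 and Mfap2, which were higher in Eln-high smooth muscle, and for Fbln1, which was not. Capitals mark matches on either strand to any of 6 motifs. These were GGGCGG, which is the GC box, TGAGTCA, which is the site of AP-1, the box with the letters CCAAT, the TATA box in the form TATAAA, the short SMAD element with the letters CAGAC, and the CArG box bound by serum response factor. The Fbln5 windows are chr12:101819120-101819369 for the upstream start and chr12:101818485-101818734 for the inner start, both on the minus strand. The Mfap2 window is chr4:141010174-141010423 and the Fbln1 window chr15:85205699-85205948, both on the plus strand and each the more upstream of 2 starts. The upstream Fbln5 window and the Fbln1 window lie outside the annotated genes, the inner Fbln5 window lies within the gene, and the last bases of the Mfap2 window reach into its first exon.
Fbln5 upstream start: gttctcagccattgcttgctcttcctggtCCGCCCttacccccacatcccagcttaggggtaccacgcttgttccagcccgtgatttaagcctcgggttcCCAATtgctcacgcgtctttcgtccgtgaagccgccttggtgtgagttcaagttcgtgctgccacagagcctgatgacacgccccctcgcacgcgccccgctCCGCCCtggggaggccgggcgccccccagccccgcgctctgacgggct
Fbln5 inner start: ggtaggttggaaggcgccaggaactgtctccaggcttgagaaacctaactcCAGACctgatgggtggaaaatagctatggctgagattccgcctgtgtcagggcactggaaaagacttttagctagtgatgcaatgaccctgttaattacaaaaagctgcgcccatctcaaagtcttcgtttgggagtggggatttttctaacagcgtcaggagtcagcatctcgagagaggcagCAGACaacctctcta
Mfap2 upstream start: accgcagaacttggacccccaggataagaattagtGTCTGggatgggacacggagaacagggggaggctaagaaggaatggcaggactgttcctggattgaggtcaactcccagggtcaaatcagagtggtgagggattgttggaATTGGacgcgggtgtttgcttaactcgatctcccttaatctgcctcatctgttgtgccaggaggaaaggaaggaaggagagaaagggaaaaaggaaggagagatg
Fbln1 upstream start: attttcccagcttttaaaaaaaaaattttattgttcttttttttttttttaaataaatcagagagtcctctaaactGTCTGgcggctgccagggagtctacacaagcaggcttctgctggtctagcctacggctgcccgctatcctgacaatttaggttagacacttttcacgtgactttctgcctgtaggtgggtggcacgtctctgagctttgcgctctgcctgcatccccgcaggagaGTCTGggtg

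The upstream Fbln5 window held 2 GC boxes and 1 CCAAT match, and the inner one 2 CAGAC matches. The Mfap2 window held 1 CCAAT and 1 CAGAC match, and the Fbln1 window 2 CAGAC matches. GGGCGG occurred in 5 of the 8 windows of elastic fibre genes and in 32.7% of all 32851 windows of that length, CAGAC in 4 and 42.2%, and CCAAT in 2 and 33.8%. The 2 Fbln1 windows overlap for most of their length, and the same 2 CAGAC matches are counted in both, so the 4 windows with CAGAC are not 4 separate stretches. The CArG box, TGAGTCA and TATAAA occurred in 0 of the 8, and in 1.47%, 4.46% and 12.4% of all windows. The windows thus differ between the starts of Fbln5, and the 3′ counts do not say which start was used.

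The second comparison set Eln-high against interstitial fibroblasts, the Tcf21 and Dpt bearing class of the heart wall. Without Eln, 4 of 9 genes were higher (Fbln2, Fbln5, Mfap4 and Lox) and 1 was lower (Mfap5), while 1.03% of 8733 genes were higher and 4.72% lower. Fbln5 had 2493 and 1972 CPM in Eln-high fibroblasts, against 146 and 136 CPM in interstitial fibroblasts, a ratio of 15.9 (14.5 to 17.6). Lox had 576 and 607 CPM against 96.2 and 96.8 CPM, a ratio of 6.12 (5.26 to 7.10). Mfap4 had a ratio of 4.54 (4.28 to 4.805) and Fbln2 one of 2.38 (2.08 to 2.71).

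Mfap5 went the other way, with 280 and 308 CPM in Eln-high fibroblasts against 742 and 741 CPM in interstitial fibroblasts, a ratio of 0.395 (0.331 to 0.469). Fbn1 (ratio 1.45), Fbn2 (1.22), Fbln1 (1.43) and Mfap2 (1.36) stayed under 2-fold. Fbln5, Mfap4, Lox and Fbln2 were thus higher in the Eln-high class of both cell types. Smooth muscle markers summed to 2407 and 3332 CPM in Eln-high fibroblasts, against 769 and 803 CPM in interstitial fibroblasts, and their part in the result was not tested.

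Set directly against each other, Eln-high smooth muscle had 0 genes higher and 4 lower than Eln-high fibroblasts, while 4.31% of 2088 genes were higher and 4.74% lower. The lower genes were Fbln1 (60.1 and 71.2 against 328 and 471 CPM, ratio 0.164), Fbn2 (ratio 0.379), Fbn1 (323 and 348 against 689 and 753 CPM, ratio 0.464) and Mfap2 (690 and 712 against 1431 and 1460 CPM, ratio 0.484). Fbln5, with a ratio of 1.69 (1.57 to 1.82), and Lox, with 1.12, were within 2-fold. Fbln2 (ratio 0.356), Mfap5 (0.418) and Mfap4 (0.462) were lower too, but each missed 2-fold in 1 replicate. By the rule the fibrillins, Mfap2 and Fbln1 were therefore lower in the muscle class, and no gene was higher.

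The third comparison set valve or tendon-like against interstitial fibroblasts, 2 classes told apart by other markers but both held under 1% Eln by the gate. Only Fbln5 was higher, and only Mfap5 lower, while 0.675% of 8739 genes were higher and 1.41% lower. Fbln5 had 458 and 605 CPM in valve or tendon-like fibroblasts, against 146 and 136 CPM in interstitial fibroblasts, a ratio of 3.68 (3.29 to 4.13). Mfap5 had 207 and 103 CPM against 742 and 741 CPM, a ratio of 0.221 (0.188 to 0.257).

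Fbn2 had 397 and 372 CPM in valve or tendon-like fibroblasts, against 223 and 237 CPM in interstitial fibroblasts, a ratio of 1.68 (1.496 to 1.88) that passed at 1.5-fold and not at 2-fold. Eln, cut at 1% in both classes, was not compared between them.

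**Figure D5:**
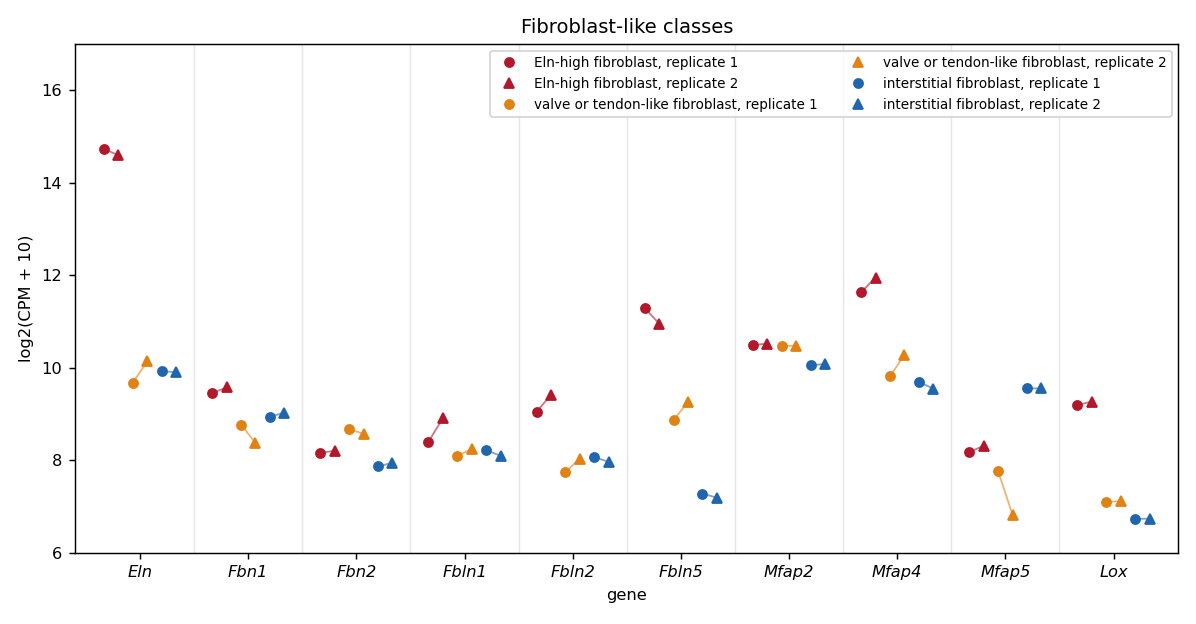
Levels of the 10 genes in Eln-high (red), valve or tendon-like (orange) and interstitial (blue) fibroblast-like barcodes as log2(CPM + 10), with circles for technical replicate 1 and triangles for replicate 2. Fbln5 falls into 3 steps, Mfap5 is highest in interstitial fibroblasts, and Mfap2 differs little.

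Pericytes, which wrap small vessels and share much with smooth muscle, had lower levels of several fibre genes than other smooth muscle, in which Eln is cut at 1%. Other smooth muscle exceeded pericytes in 5 of 8 genes with enough counts (Eln, Fbln1, Fbln5, Mfap4 and Lox) and fell below them in 0, while 4.95% of 4158 genes were higher and 6.4% lower. Lox had 195 and 127 CPM in other smooth muscle, against 7.26 and 1.90 CPM in pericytes, and Mfap4 361 and 113 CPM against 12.7 and 20.8 CPM. Other smooth muscle was uneven, however. Its 90 barcodes under 0.1% Eln had 9.30 CPM of Fbln5, below the 22.2 CPM of pericytes, and 34.9 CPM of Mfap4, against 16.7 CPM. Lox had 90.6 CPM and Fbln1 51.1 CPM there, against 4.64 and 22.2 CPM in pericytes. The 38 barcodes with 0.1% to 0.5% Eln had 165 CPM of Fbln5 and 325 CPM of Mfap4. Fbn1 (207 against 235 CPM), Fbn2 (84.1 against 100.1 CPM) and Mfap2 (274 against 256 CPM) were within 1.5-fold. The fibrillins and Mfap2 were thus present in both classes, with intervals of the ratio of 0.711 to 1.08, 0.601 to 1.17 and 0.886 to 1.29.

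Endothelial classes differed from each other as well. Endocardial barcodes, the lining of the chambers, exceeded other vascular endothelium in 8 of 9 genes with enough counts, all but Mfap4, and 0 were lower, while 7.56% of 9521 genes were higher and 7.42% lower. Mfap2 had 438 and 497 CPM in endocardial barcodes, against 46.1 and 41.2 CPM in other vascular endothelium (ratio 10.7, interval 9.40 to 12.1). Mfap5 had 218 and 218 CPM against 24.3 and 23.4 CPM (ratio 9.14), and Fbln2 420 and 476 CPM against 83.7 and 71.5 CPM (ratio 5.74). Eln had 1209 and 1751 CPM against 237 and 88.1 CPM. After thinning, Eln was detected in 66.5% of endocardial barcodes and in 11.4% of other vascular endothelium. The endocardial level was uneven, with a median Eln share of 0.0655% per barcode and a highest of 1.87%. In endocardial barcodes 333 of the 2899 Eln counts, and 60 of the 146 Fbln5 counts, came from 1 barcode.

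Arterial endothelium exceeded other vascular endothelium in 6 of 8 genes with enough counts (Eln, Fbn1, Fbn2, Fbln2, Fbln5 and Mfap2) and was lower in 0, while 1.57% of 9388 genes were higher and 3.52% lower. It held 64 barcodes, and 1 barcode of replicate 2 with 32423 counts supplied 316 of the Eln, 172 of the 360 Fbln2 and 91 of the 234 Fbln5 counts. A barcode of replicate 1 with 15200 counts supplied 478 of the 534 Eln counts there. Leaving barcodes out was an alternative chosen after the data were seen. Without the barcode of replicate 2, 5 genes were higher against 1.4% of genes, and Fbn1 was no longer among them. Without that of replicate 1, 5 were higher against 1.41%, and Eln was no longer among them, with 173 and 1119 CPM in arterial endothelium against 237 and 88.1 CPM in other vascular endothelium. Without both, 4 were higher (Fbn2, Fbln2, Fbln5 and Mfap2) against 1.33%. Fbln2 then had 198 and 145 CPM in arterial endothelium, against 83.7 and 71.5 CPM in other vascular endothelium.

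Fbn2 did not depend on those barcodes. It had 195 and 247 CPM in arterial endothelium, against 7.43 and 6.40 CPM in other vascular endothelium, a ratio of 32.1 (23.4 to 44.6). The counts came from 12 of the 64 barcodes, however, with 53 of 161 in 1 of them. The arterial level of this fibrillin was therefore carried by a minority of the class.

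Single barcodes showed how many of the genes other than Eln were read together. After thinning to 2000 counts, the median barcode had 6 of these 9 genes detected in Eln-high fibroblasts, 4 in Eln-high smooth muscle and 1 in other smooth muscle. At least 4 of the 9 were detected in 79.3% of Eln-high smooth muscle barcodes (exact binomial interval 70.8 to 86.3) and in 9.56% of other smooth muscle barcodes (5.19 to 15.8). The shares were 61.2% in valve or tendon-like fibroblasts and 58.6% in interstitial fibroblasts, with overlapping intervals. In Eln-high fibroblasts the share was 96.7%. Among the remaining classes, 27 of 51 other fibroblasts (52.9%), 21 of 55 epicardial (38.2%) and 23 of 242 endocardial barcodes (9.50%) reached 4. In arterial endothelium 2 of 64 did, and in other vascular endothelium 6 of 607. Pericytes had 5 of 238, cardiomyocytes 4 of 5378 and macrophages 0 of 126, the last of which allows up to 2.89%.

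Partner genes were counted in full from 3 lists. Of 26 genes of assembly and crosslinking, 10 had enough counts in the smooth muscle comparison, and 5 of these were higher in Eln-high smooth muscle against 4.31% of all genes, with 0 lower. They were Loxl1, a crosslinking enzyme of elastin (684 and 679 against 245 and 185 CPM, ratio 3.19), Ltbp4 (ratio 3.01) and Ltbp3 (3.51), which bind latent TGF-beta, and the proteoglycan genes Vcan (2.84) and Bgn (2.18). Ltbp3 and Vcan, with 31 and 28 counts in other smooth muscle, were testable only through the Eln-high class. Efemp2, whose product, fibulin-4, is needed for elastic fibres in mice, had 153 CPM in Eln-high and 127 CPM in other smooth muscle. Of the 12 genes for elastin breakdown and its inhibitors, 5 were testable. Of these, 1 was higher in Eln-high smooth muscle and 0 were lower, against 4.31% and 6.43% of all genes. The higher gene was Mmp2, a metalloproteinase, with 129.8 and 126 CPM against 38.4 and 33.1 CPM, a ratio of 3.59 (2.25 to 5.91). With 25 counts in other smooth muscle, it was testable only through the Eln-high class.

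Of 4 testable integrin genes among 9, 2 were higher in Eln-high smooth muscle and 0 lower, against 4.31% and 6.43% of all genes. Both also led that class. Itga8 had 335 and 352 CPM in Eln-high smooth muscle, against 103 and 55.1 CPM in other smooth muscle, a ratio of 4.37 (3.22 to 6.01). Itgb3, a partner of the alpha v integrin, had 101 and 88.0 CPM against 32.5 and 19.3 CPM, a ratio of 3.72 (2.15 to 6.75). With 18 counts in other smooth muscle, Itgb3 was testable only through the Eln-high class. In the class of Eln-high smooth muscle 0.588% of 1871 genes led.

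Adamtsl2, whose product binds fibrillin microfibrils, led Eln-high fibroblasts. It had 109 and 127 CPM there, against 27.7 and 15.3 CPM in other fibroblasts, the next class, while 0.411% of 1702 genes led Eln-high fibroblasts. Against interstitial fibroblasts, 5 of 22 testable assembly genes were higher in Eln-high fibroblasts (Adamtsl2, Ltbp2, Ltbp1, Ltbp3 and Bgn) and 3 were lower (Loxl2, Emilin2 and Adamtsl5). Of all 8733 genes, 1.03% were higher and 4.72% lower. Adamtsl2 and Ltbp2, with 17 and 39 counts in interstitial fibroblasts, were testable only through the Eln-high class. Among genes of elastin breakdown, Ctss, a macrophage cathepsin, led macrophages with 1470 and 1685 CPM, and Timp4, a metalloproteinase inhibitor, led other vascular endothelium with 148 and 143 CPM. Emilin2 led cardiomyocytes with 81.3 and 82.0 CPM. In those classes 12.7%, 0.31% and 4.17% of genes led.

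Among fibroblasts that were not Eln-high, cycling ones, with at least 0.1% of counts from 6 cycling markers, were set against resting ones. By the 2-fold rule 0 of the 9 genes other than Eln were higher and 0 lower. Eln is cut at 1% in both classes. Of 8773 genes, 3.18% were higher and 2.01% lower. The median log2 ratio, computed on CPM + 10, was -0.53 for the 9 genes and -0.07 for all genes. Mfap4 had 448 and 527 CPM in cycling fibroblasts, against 944 and 874 CPM in resting ones, a ratio of 0.529 (0.487 to 0.574) that reached 2-fold in replicate 1 only. Fbn2 had a ratio of 0.650 (0.565 to 0.745). Fbln1 (0.714), Fbln2 (0.868), Fbln5 (0.678), Mfap2 (0.676) and Mfap5 (0.690) were lower too, within 2-fold and with counting intervals under 1. Fbn1 (0.990) and Lox (1.02) had intervals that include 1.

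The patterns of the 10 genes over the 12 compared classes were compared by Pearson's r of log2(CPM + 10). These are descriptions, since the points share libraries and Eln defines 2 of the 12 classes. Among the 10, Fbn1 and Mfap2 were most alike (r = 0.97), followed by Eln and Fbln5 (0.96), Fbln5 and Lox (0.96) and Eln and Lox (0.94). Fbln1 and Fbln2 were least alike (0.37). Among 8796 other genes, Mfap4 was most like Loxl1 (0.989), Mmp23 (0.989) and Sfrp2 (0.985), and Mfap2 most like Mdk (0.982), Nfix (0.978) and Col5a2 (0.973). Fbln5 was nearest to Pdgfrl (0.936), Kazald1 (0.922) and Gxylt2 (0.913), and Eln to B4galt2 (0.922), Hs6st2 (0.919) and Gxylt2 (0.911). With a pseudocount of 1 in place of 10, 19 of the 30 genes named this way stayed among the first 3.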

How the data were processed

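Single cells of 1 newborn mouse heart suspension were read with the 10x 3′ v2 kit in 2 technical replicates. Reads were processed with Cell Ranger 2.1.0 on mm10, per the submitters' processing notes; the counter's settings, and whether 1 count is 1 molecule or 1 read, are not given in the sources used here. The deposited tables hold raw whole-number counts per gene and barcode, as the authors made them, and 27645 of 27999 gene IDs were matched to symbols (354 were not); gene coordinates are those of GENCODE for the same build. Both records carry the same internal sample ID while the second table's columns name another, so tables were matched to replicates by record. Barcodes were kept, gated by marker shares of counts (minimums of 0.03% to 0.5%, set after the marker distributions were seen) and summed per class and replicate with Python 3.11.15, numpy 2.4.6, scipy 1.17.1 and pandas 2.3.3. The genes, gene lists and classes were chosen with earlier results of these data known. With 1 biological sample there is no test and no p-value; ratios carry exact 95% intervals and shares exact Clopper-Pearson intervals, which cover counting error only. Genes were named as the 10 chosen genes, the partners that passed the size rule, and the 3 genes most alike in pattern. For detection shares, barcodes were thinned to 2000 counts and shallower ones left out. The calls were tested on simulated data. Alternatives covered barcode filters, gates, scaling, fold, count minimum, the Eln threshold, thinning, pseudocount and each replicate left out.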

Additional observations from a re-analysis of the deposited data

How the results depend on the processing

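The number of elastic fibre genes leading a class was 1 and moved under 8 settings. It was 3 with gate thresholds doubled (Fbln5, Mfap4 and Mfap5), 2 with the mean over cells, 2 without the 5% of barcodes with most counts, 4 at 1.5-fold, 0 at 3-fold and 2 with Eln-high at 2%. It ranged from 1 to 2 with 1 replicate left out, where Mfap4 was added without replicate 1. With broad classes, chosen after seeing the data, it was 7, with no share of all genes to set beside it. Valve or tendon-like fibroblasts exceeded interstitial ones in 2 genes at 1.5-fold, where Fbn2 joined Fbln5. At that fold 115 of 8739 genes were higher, against 59 at 2-fold. The Eln-high share of smooth muscle was 38.4% at the 2% threshold. The cause of these moves was not tested. The count of 6 genes higher in Eln-high smooth muscle stayed at 5 or 6 in every setting run. With barcodes past only 1 of the fibroblast, smooth muscle and pericyte gates, all of the 5 but Lox were testable only through Eln-high smooth muscle. Over all genes 116 of 2689 were higher there in the main setting. That number was 228 at 1.5-fold, 52 at 3-fold and 830 of 11363 with no count minimum. No gene ratio reversed in that comparison or in that of valve or tendon-like with interstitial fibroblasts. Apart from the arterial counts below, the other comparisons of 2 classes were not rerun under these settings. The arterial count of 6 was 5 without either of 2 single barcodes and 4 without both, chosen after seeing the data. No paired analysis was possible because both libraries are technical replicates of 1 sample and no test was run. Small classes, such as arterial endothelium with 64 barcodes, are limited by counting error and by single barcodes.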
